A study of Mus musculus with 12 samples.

Results

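The comparison described here set the primary tumour of NR-S1, a squamous cell carcinoma of the mouse, after 8 Gy of gamma rays against the unirradiated primary tumour. It was measured on 2 of the 12 two-colour Agilent arrays of the study, which were chosen by their labels and hold the same pair of RNAs with the dyes exchanged. Of the 27670 genes and other features on the arrays, 15579 were measured, which means that on each of the 2 arrays 1 RNA or both stood well above background. NR-S1 had been transplanted into the hind leg of male C3H/HeMsNrs mice. In the gamma group the leg tumour received 8 Gy once its diameter was 7.5 mm, and in the unirradiated group it received none. Each primary was sampled 1 week later, and laser microdissection isolated the tumour cells from it. Each group is 1 RNA, labelled clone 1, and how many animals it came from is not given in the labels. A primary given 5 Gy of carbon ions, treated alike in all other respects the labels name, was on 4 further arrays used below.

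Ionising radiation breaks DNA, and cells answer at first with p53 and its targets, arrest and repair. DNA that reaches the cytosol can be read by cGAS and STING, which switch on interferon, and interferons act through transcription factors, those of the IRF family among them, on genes with an interferon-stimulated response element or a gamma-activated site in their promoters. Squamous carcinoma cells keep parts of the keratinocyte programme, with basal keratins in dividing cells and a cornified envelope in differentiating ones.

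Ratios are log2 of gamma-irradiated over unirradiated and are means over the 2 dye orientations, with the SD over those orientations, which covers array and dye error and leaves out the spread between animals. With 1 RNA per group no p-value can be had. "Rose" and "fell" are used of genes at least 2-fold apart in each orientation. By that rule 348 genes rose (2.23% of those measured) and 196 fell (1.26%), together 3.49%. Counts of called genes in the lists below are to be read beside these shares. Without turning the dye-swapped array round, so that only dye effects can pass, 3 genes passed. The median ratio over all measured genes was 0.02 and the median SD was 0.11. Among the genes that rose the median ratio was 1.55, with 91 at least 4-fold higher and 23 at least 8-fold higher. Among those that fell it was -1.48, with 42 at least 4-fold lower and 3 at least 8-fold lower. The SD exceeded 0.5 in 2 of the 544 genes, Lmnb1, which encodes the nuclear lamina protein lamin B1 (1.52 and 2.60 in the 2 orientations), and Lgals1, which encodes galectin-1 (-1.08 and -1.91), a call that ended with each array centred on its median in place of loess (median centring). Of the genes named below, Pip, Trpv6, Tspan1, Slc1a1, Alox15, Nkg7, Agr2, Apol10a, Il2rb and Klk12 had the unirradiated RNA well above background on 1 of the 2 arrays.

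**Figure D1:**
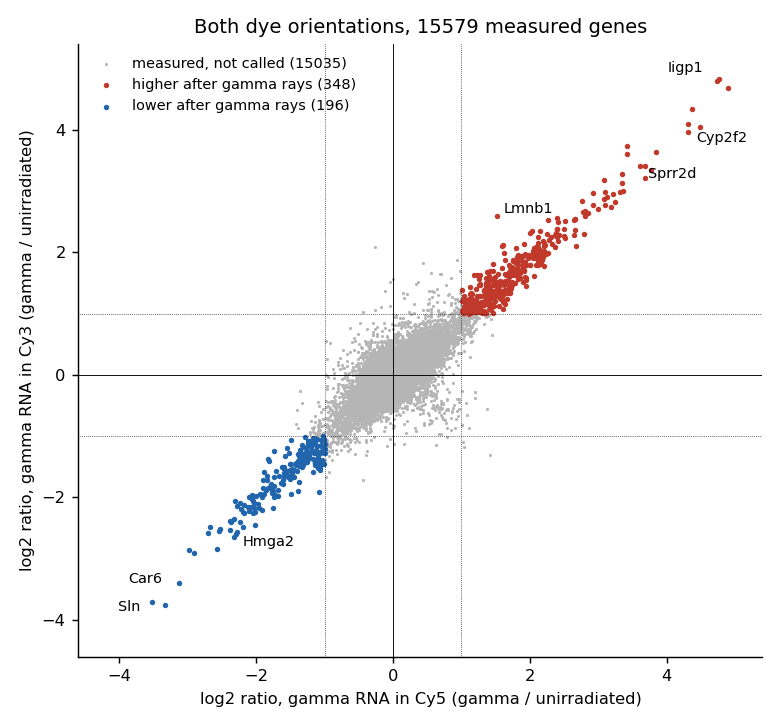
Log2 ratio of gamma-irradiated over unirradiated primary for the 15579 measured genes, with the gamma RNA in Cy5 on the x axis and in Cy3 on the y axis. The 348 genes that rose (red) and the 196 that fell (blue) lie outside the dotted lines at 1 and -1 in both orientations, and Lmnb1 is the red point farthest from the diagonal.

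On the 2 arrays, the share of spots well above background was 54.5% to 59.2% per channel, 24 and 35 spots were left out as flagged, and none was saturated. The markers of the labelled tumour type were present: all 18 basal keratinocyte genes were well above background in both RNAs on both arrays. None of the 18 was called, and their median was -0.07. Krt5 and Krt14, the basal keratins, had normalised intensities of 217726 and 153203 (Krt5) and 264181 and 171737 (Krt14) in the gamma-irradiated primary. In the unirradiated primary they had 147926 and 192645 (Krt5) and 102009 and 251218 (Krt14). For these intensities the array with the gamma RNA in Cy5 always comes before the other. The Krt14 values moved with the dye, and its ratio was 0.41 ± 1.36. Trp63, the transcription factor of stratified epithelia, stood at 0.21 ± 0.14.

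Interferon-inducible GTPases, which attack the vacuoles of intracellular pathogens, held the highest ratios. All 18 measured members rose, with a median of 2.26 against 0.02 over all measured genes, and so did the 15 with both RNAs well above background on both arrays. The 6 immunity-related GTPases had a median of 4.26, the 10 guanylate-binding proteins 2.06, and Mx1 and Mx2, which block viral replication, stood at 1.51 ± 0.05 and 1.42 ± 0.03. Below are the promoters of 3 of these GTPases, of Isg15 and of Cxcl10, shown because they belong to the groups that rose together and carry the interferon motifs. Each runs 5′ to 3′ from 250 bases before to 50 after the gene's start, from RefSeq's table for GRCm38.p6. Capitals mark the interferon-stimulated response element (ISRE: GAAA, any 2 bases, GAAA) and the gamma-activated site (GAS: TTC, any 3 bases, GAA), each searched on both strands.
Igtp, chr11:58199306-58199605, plus strand: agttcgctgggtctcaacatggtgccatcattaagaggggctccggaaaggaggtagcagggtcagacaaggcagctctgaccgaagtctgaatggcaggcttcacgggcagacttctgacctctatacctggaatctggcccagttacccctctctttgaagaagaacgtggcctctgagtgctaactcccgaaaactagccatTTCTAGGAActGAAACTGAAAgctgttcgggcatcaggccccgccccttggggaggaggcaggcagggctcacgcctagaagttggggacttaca
Irgm2, chr11:58214727-58215026, plus strand: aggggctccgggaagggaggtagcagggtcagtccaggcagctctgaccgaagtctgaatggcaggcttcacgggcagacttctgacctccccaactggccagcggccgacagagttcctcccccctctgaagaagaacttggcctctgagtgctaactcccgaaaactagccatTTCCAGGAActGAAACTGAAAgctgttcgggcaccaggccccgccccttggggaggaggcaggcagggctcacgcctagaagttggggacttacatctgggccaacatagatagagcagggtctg
Gbp3, chr3:142559794-142560093, plus strand: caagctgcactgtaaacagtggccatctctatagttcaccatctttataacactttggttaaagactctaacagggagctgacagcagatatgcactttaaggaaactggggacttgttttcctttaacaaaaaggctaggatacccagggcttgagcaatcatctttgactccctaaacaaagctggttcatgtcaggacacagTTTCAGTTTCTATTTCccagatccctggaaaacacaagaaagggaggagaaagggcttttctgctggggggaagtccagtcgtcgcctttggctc
Isg15, chr4:156200769-156201068, minus strand: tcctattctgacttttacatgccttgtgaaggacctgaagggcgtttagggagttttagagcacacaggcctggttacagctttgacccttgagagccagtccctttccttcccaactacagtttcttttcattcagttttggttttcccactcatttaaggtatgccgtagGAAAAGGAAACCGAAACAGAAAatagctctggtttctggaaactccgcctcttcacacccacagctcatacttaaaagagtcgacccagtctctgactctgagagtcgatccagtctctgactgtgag
Cxcl10, chr5:92348840-92349139, minus strand: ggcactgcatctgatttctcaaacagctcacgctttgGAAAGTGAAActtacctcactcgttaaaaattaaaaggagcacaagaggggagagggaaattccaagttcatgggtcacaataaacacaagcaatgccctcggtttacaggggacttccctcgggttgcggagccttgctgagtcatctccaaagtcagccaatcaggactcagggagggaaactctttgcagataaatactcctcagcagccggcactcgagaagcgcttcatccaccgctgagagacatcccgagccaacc
In Igtp the GAS begins at -45 and the ISRE at -34, counted from the gene's start, and in Irgm2 the same pair lies at -75 and -64. Gbp3 holds 2 overlapping ISREs at -45 and -39, read on the opposite strand, and a second Gbp3 start in the table holds none. Isg15 has 3 overlapping ISREs, at -78, -72 and -66, and Cxcl10 has 1 at -213.

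An ISRE was found in 9 of the 10 GTPase promoters in the table (90.0%) and a GAS in 5 of the 10. Over the 10584 measured genes with a promoter, 3.72% held an ISRE and 8.28% a GAS, and over all 27025 genes of the table the shares were 3.99% and 9.55%. Among the genes that rose, 15.9% of 227 promoters held an ISRE and 12.3% a GAS. Among those that fell, 5.63% of 142 held an ISRE and 6.34% a GAS. Promoters of antiviral effectors held an ISRE in 11 of 28 cases (39.3%), those of MHC class I presentation in 5 of 24 (20.8%), and those of skeletal muscle genes in 0 of 46. Cxcl9, Psmb9 and Ifi47, which all rose, had neither motif in this window. A match describes the letters and not a bound site.

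Iigp1, an immunity-related GTPase, had intensities of 3503 and 3379 in the gamma-irradiated primary, against 128 and 118 in the unirradiated primary, a ratio of 4.80 ± 0.05 and the highest of all measured genes. Igtp had 11273 and 11592 after gamma rays, against 425 and 415 without, a ratio of 4.77 ± 0.05. Irgm2 reached 2723 and 2351 after gamma rays, against 288 and 333 in the unirradiated primary (3.03 ± 0.30). In these genes the values of the RNAs lay apart on each array, which the 2-fold rule for a call requires of every called gene. Tgtp1 stood at 4.79 ± 0.16 by its brightest probe and at 1.08 by another. Ifi47 was at 3.75 ± 0.15 and the guanylate-binding proteins Gbp3 and Gbp2 at 3.52 ± 0.13 and 3.02 ± 0.16. For Gbp5, Gbp6 and Gbp8 neither array had the unirradiated RNA well above background, so their rise is a bound, at least 3.60-fold, 3.91-fold and 2.05-fold.

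**Figure D2:**
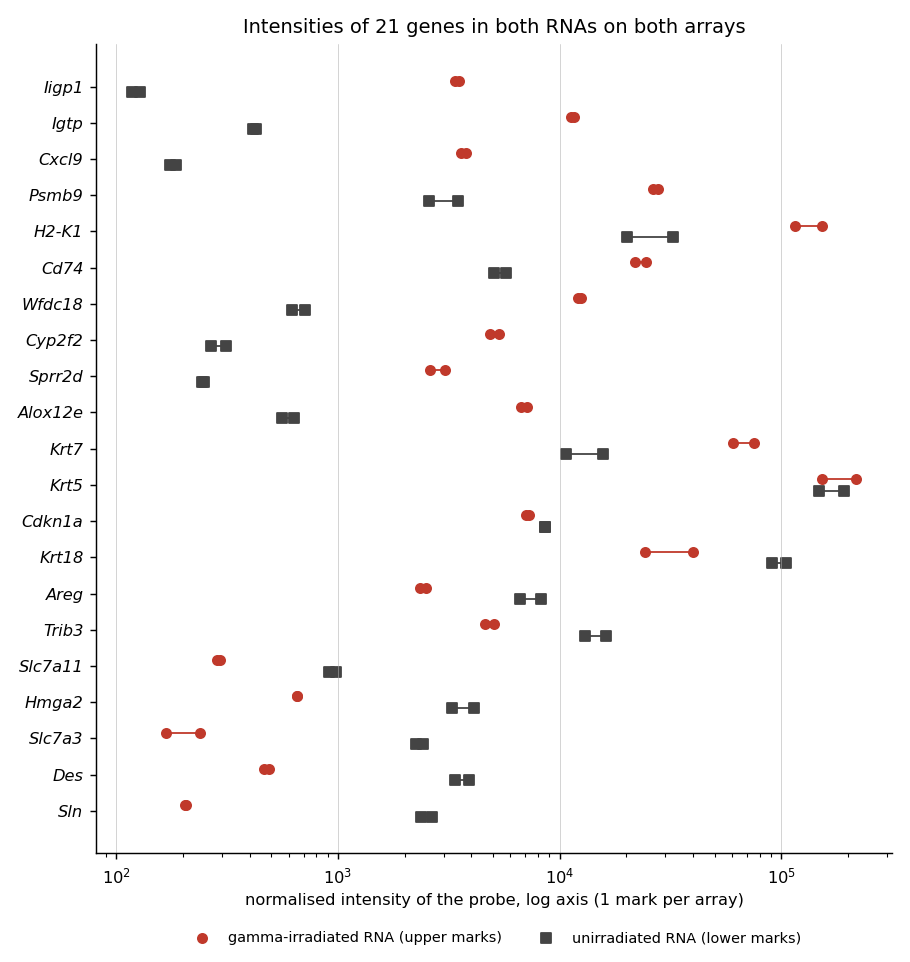
Normalised probe intensity (log axis) of 21 genes in the gamma-irradiated RNA (red circles, upper) and the unirradiated RNA (grey squares, lower), 1 mark per array. The RNAs lie apart on both arrays for Iigp1, Igtp, Psmb9, Sprr2d, Slc7a3 and Sln, as the rule for a call requires, while Krt5 overlaps.

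Antiviral effectors rose in 16 of 37 measured cases and none fell, with a median of 0.71. Ifi27l2a, a small interferon-induced membrane protein, had 21041 and 20338 after gamma rays, against 936 and 1231 in the unirradiated primary (4.27 ± 0.31). Rtp4, a chaperone of receptors that interferon induces, stood at 3.58 ± 0.22, and the 2′-5′-oligoadenylate synthetase relative Oasl2 at 2.94 ± 0.23. Ifit1, which binds foreign RNA, was at 2.45 ± 0.06, and Bst2, tetherin, which holds budding virions at the cell surface, was at 1.85 ± 0.02 with 12784 and 13574 after gamma rays against 3591 and 3740 without. Ifi44 rose by 2.72 ± 0.09, although a second probe gave 0.22. The apolipoprotein L genes, a family linked to innate immunity, rose in 6 of 8 measured cases, among them Apol7a at 2.59 ± 0.08 and Apol7c at 2.13 ± 0.02. Oas1f, an oligoadenylate synthetase outside the list, rose by 3.04 ± 0.08.

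Of 25 measured genes of interferon signalling 9 rose and none fell, with a median of 0.83. Irf7, which amplifies type I interferon, was at 2.16 ± 0.21, Irf9, another interferon-activated factor, at 1.70 ± 0.19, and Irf1 at 1.14 ± 0.10. The feedback protease Usp18 rose by 2.60 ± 0.08 and the ubiquitin-like modifier Isg15, with 3087 and 3088 after gamma rays against 698 and 750 without, by 2.09 ± 0.07. The enzyme that charges ISG15, Uba7, rose by 1.71 ± 0.11. Of the interferons themselves 1 of 7 on the array was measured: Ifng, interferon gamma, had 179 and 137 in the gamma-irradiated primary, against 74 and 66 in the unirradiated primary, an RNA in which neither array had it well above background, so it was at least 1.92-fold higher. Ifng was not called with the mean of all probes. By the second route given below, through the carbon RNA, it stood at 1.05 and was not called either. None of the 6 measured interferon receptors was called, where 3.49% of all measured genes were.

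Nucleic acid sensors rose in 6 of 17 cases, none fell, and their median was 0.65. They were Zbp1, which senses Z-form nucleic acid (2.51 ± 0.21), the RNA helicases Ifih1 (2.09 ± 0.00) and Dhx58 (1.56 ± 0.06), the HIN-200 members Ifi203 (1.97 ± 0.02) and Ifi205 (1.36), and Samhd1, which breaks down nucleotides (1.09 ± 0.06). Cgas and Sting1, the cytosolic DNA sensor and its adaptor, stood at 0.38 ± 0.22 and 0.07 ± 0.08. With median centring the calls of Irf1, Ifi205 and Samhd1 ended.

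MHC class I presentation, by which cells show peptides to cytotoxic T cells, rose in 15 of 30 measured genes and fell in none, with a median of 1.25. Heavy chains and beta-2 microglobulin rose in 10 of 12 cases, and their median was 2.06. H2-K1, a classical heavy chain, had 114684 and 152960 after gamma rays, against 20136 and 32528 in the unirradiated primary (2.37 ± 0.20). B2m, the light chain of every class I molecule, had 51557 and 62211 after gamma rays, against 9685 and 13693 without (2.30 ± 0.16). On each array the RNAs lay apart for both genes, as for every called gene. Of 11 proteasome genes 2 rose, the immunoproteasome subunits Psmb9 (3.18 ± 0.25) and Psmb8 (3.16 ± 0.24). Psmb10, the remaining inducible subunit, stood at 0.59 ± 0.09 and the activator Psme1 at 0.94 ± 0.02, and the median of the 11 was 0.00. Among the loading genes the peptide transporters Tap1 (2.02 ± 0.15) and Tap2 (1.63 ± 0.25) and the tapasin gene Tapbp (1.33 ± 0.02) rose. With median centring 9 class I genes rose in place of 15, and Tapbp, H2-Q1, H2-Q2, H2-Q7 and H2-Q10 (2.07 ± 0.13) were among the calls that ended.

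MHC class II, which professional antigen-presenting cells carry and which interferon gamma can induce in other cells, rose in 7 of 16 measured genes and fell in none, with a median of 0.98. Cd74, the invariant chain, had 21860 and 24499 in the gamma-irradiated primary, against 5051 and 5759 in the unirradiated primary (2.10 ± 0.02). H2-DMb1, which helps load peptides, stood at 2.22 ± 0.20, H2-Eb1 at 2.00 ± 0.09 and H2-Aa at 1.81 ± 0.15. H2-Ab1 rose by 1.69 ± 0.35, but a second probe gave 0.06 and the call ended with median centring. Ciita, the master activator of class II transcription, rose 2.83-fold, with 509 and 557 after gamma rays against 181 and 195 without.

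Neighbouring genes of several families were called together. With 12989 measured protein-coding genes in chromosomal order on GRCm38.p6, of which 3.79% were called, 13 runs of at least 3 consecutive genes were all called in 1 direction, 12 of them upward. On chromosome 17 a run of 9 went from H2-DMb2 through Psmb9, Tap1, Psmb8 and Tap2 to H2-Eb1, and another of 5 from H2-D1 through H2-Q1, H2-Q2 and H2-Q7 to H2-Q10. The guanylate-binding proteins made a run of 5 on chromosome 3 (Gbp5, Gbp7, Gbp3, Gbp2b and Gbp2) and of 4 on chromosome 5 (Gbp8, Gbp9, Gbp4 and Gbp6). Other runs held Apol7a, Apol10a, Apol7c and Apol10b on chromosome 15, Ifit2, Ifit3 and Ifit1 on chromosome 19, and Ifi203, Ifi202b and Ifi205 on chromosome 1. Most runs hold relatives of 1 family, and cross-hybridisation between them was not tested. A run without interferon genes on chromosome 11 held the lipoxygenases Alox12 (1.26), Alox12e (3.54) and Alox15 (1.97). The single run downward, also on chromosome 11, held the myosin heavy chains Myh2, Myh1, Myh4 and Myh8. Within these runs, calls that ended with median centring included those of H2-Ab1, H2-Q1, H2-Q2, H2-Q7, H2-Q10, Ifi202b, Ifi205, Alox12 and Myh2. Under that setting the runs that held them were broken or shorter.

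The 3 chemokines that bind CXCR3 on activated T and natural killer cells all rose. Cxcl9 had 3607 and 3772 in the gamma-irradiated primary, against 174 and 186 in the unirradiated primary (4.36 ± 0.02), and Cxcl10 had 4830 and 3862 after gamma rays, against 354 and 381 without (3.56 ± 0.30). Cxcl11, below the background limit without irradiation, was at least 2.75-fold higher. Of 6 measured chemokines that attract neutrophils 2 fell, Cxcl3, with 1239 and 1180 after gamma rays against 3780 and 4050 without (-1.69 ± 0.12), and Cxcl1, with 2344 and 2008 after gamma rays against 4946 and 5697 without (-1.29 ± 0.30). None of 14 CC chemokines was called, where 3.49% of all measured genes were. Il1a, the alarm cytokine of keratinocytes, fell (-1.25 ± 0.19), as did the decoy receptor Il1r2 (-1.15 ± 0.02), while Il18bp, which binds interleukin 18, rose by 1.17 ± 0.21.

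Markers of lymphocytes were dim. All 28 measured T and NK cell genes were well above background in the gamma RNA on both arrays. In the unirradiated RNA 17 of them were, so 11 counted as measured through the gamma RNA on 1 array or both. Of the 28, 4 rose, none fell and the median was 0.46, while of the 17 none rose and the median was 0.40. With the background offset at 0, or by Feature Extraction's ratios, 13 of the 28 rose, with medians of 0.93 and 1.40. Over all 39 T and NK cell genes on the arrays, measured or not, intensities summed to 8681 and 8356 in the gamma-irradiated primary. In the unirradiated primary they summed to 6505 and 6529. The 4 were Nkg7 of cytotoxic granules (1.60 ± 0.20), the T cell receptor subunit Cd3g (at least 2.87-fold higher), the interleukin 2 receptor chain Il2rb (1.42 ± 0.07) and granzyme B, Gzmb (at least 2.07-fold higher). Cd3g was dim, at 266 and 206 after gamma rays against 86 and 71 without. Cd3e, another T cell receptor subunit, had 113 and 121 after gamma rays, against 106 and 117 without (0.06 ± 0.03), and Cd8a stood at 0.94 ± 0.27. Pdcd1, which encodes the inhibitory receptor PD-1, was the 1 checkpoint gene of 21 called, at least 2.63-fold higher, while its ligand Cd274 stood at 0.43 ± 0.17. Of these 21, 15 were well above background in the unirradiated RNA on both arrays, and none of the 15 rose. The count over the 21 was 4 with an offset of 0 and 6 by Feature Extraction's ratios. More cells of a type and more RNA per cell cannot be told apart in such samples, and the part of lymphocytes in the interferon and MHC values was not tested.

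Of 31 macrophage genes 2 rose, the arginase Arg1 (1758 and 1712 after gamma rays against 529 and 595 without, 1.63 ± 0.15) and the beta-glucan receptor Clec7a (1.03 ± 0.02), and the median was 0.13. Over all measured genes 2.23% rose. Adgre1, a defining macrophage receptor, stood at 0.24 ± 0.21. The summed intensity of all 34 macrophage genes on the arrays was 98310 and 98918 in the gamma-irradiated primary, against 84220 and 89460 in the unirradiated primary. Neutrophil genes had a median of -0.25, with S100a8 at -0.16 ± 0.01, and the 1 of 18 that rose was Ltf, lactoferrin, which secretory epithelium also makes (2.51 ± 0.00). Of 16 B cell genes 4 were measured and none called. Complement genes rose in 5 of 20 cases: C1s1 and C1ra, proteases of the classical pathway (2.16 ± 0.08 and 1.33 ± 0.30), their inhibitor Serping1 (1.76 ± 0.14), factor B, Cfb (1.49 ± 0.16), and C3 (1.15 ± 0.05). The calls of Cxcl1, Il1a, Il1r2, Il18bp, Clec7a, C1ra, Cfb and C3 ended with median centring.

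**Figure D3:**
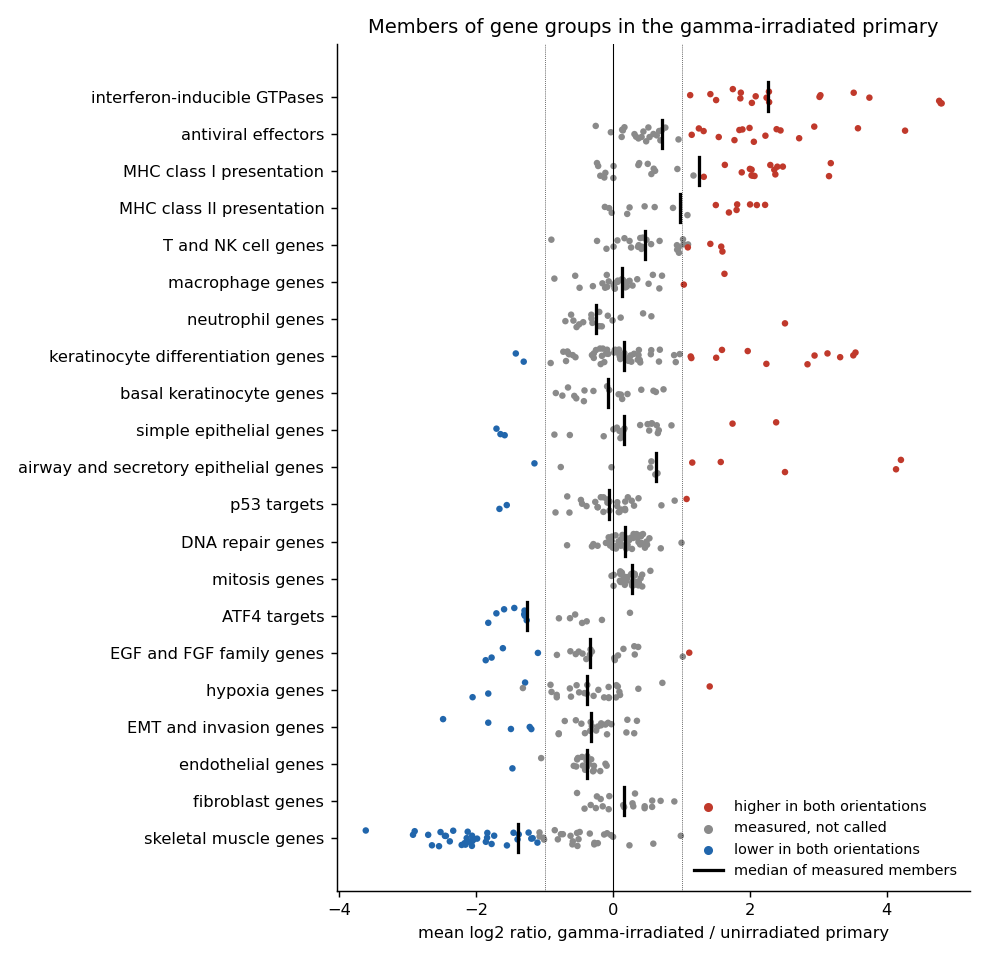
Mean log2 ratio of gamma-irradiated over unirradiated primary for each measured member of 21 gene groups, 1 point per gene, with black bars at the group medians and dotted lines at 1 and -1. All interferon-inducible GTPases lie right of 1, ATF4 targets and skeletal muscle genes lie mostly left of 0, and no DNA repair or mitosis gene is called, the DNA repair genes running from -0.67 to 1.00 and the mitosis genes from -0.02 to 0.54.

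Epithelial genes moved in both directions. Of 64 measured genes of keratinocyte differentiation 12 rose and 2 fell, with a median of 0.16. Of the 55 with both RNAs well above background 9 rose. Sprr2d, a small proline-rich protein of the cornified envelope, had 3046 and 2607 after gamma rays, against 250 and 244 in the unirradiated primary (3.51 ± 0.14). Crct1, of the same gene cluster, had 977 and 807 after gamma rays, against 129 and 103 without (2.94 ± 0.03), and Cnfn, cornifelin, had 990 and 952 after gamma rays, against 204 and 206 without (2.24 ± 0.05). In each of these the 2 RNAs lay apart on both arrays, as in every called gene. Sprr2f rose by 3.13 ± 0.06, but the relatives Sprr2a1, Sprr2b and Sprr2e stood at 0.04, -0.66 and -0.59, and Sprr1b fell by 1.42 ± 0.12. The epidermal lipoxygenase Alox12e had 7150 and 6712 after gamma rays, against 559 and 632 without (3.54 ± 0.19), the calmodulin-like Calml3 stood at 3.32 ± 0.05 and the keratin Krt79 at 2.84 ± 0.11. The main markers of the outer epidermis were not called: Krt1, Krt10, Ivl and Flg were at 0.25 ± 0.19, 0.27 ± 0.17, -0.73 ± 0.08 and 0.16 ± 0.21. Ly6d, a surface protein of differentiating keratinocytes, rose as well, with 52990 and 61693 after gamma rays against 18264 and 19708 without (1.59 ± 0.08).

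Genes of secretory epithelium rose in 5 of 12 measured cases and fell in 1, with a median of 0.63. In 9 of the 12 the unirradiated RNA was well above background on both arrays too, and 3 of these rose. Over all 33 on the arrays the median was 0.01. Wfdc18, a secreted protein of the whey acidic protein family, had 12423 and 12101 in the gamma-irradiated primary, against 623 and 707 in the unirradiated primary (4.21 ± 0.16), and its second probe gave 3.48. Cyp2f2, a cytochrome P450 of airway club cells, had 5344 and 4858 after gamma rays, against 269 and 313 without (4.14 ± 0.25). Scgb1a1, the defining secretoglobin of club cells, stood at -0.02. Agr2, which helps fold mucins, rose by 1.57 ± 0.21 and Wfdc12 was at least 2.23-fold higher, while the protease inhibitor Slpi fell by 1.15 ± 0.19. Pip, prolactin-induced protein, rose by 2.97 ± 0.15, but its second probe gave a ratio of 0.00.

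Keratins of simple epithelium split. Krt7 had 60238 and 75330 after gamma rays, against 10678 and 15610 in the unirradiated primary (2.38 ± 0.16), and its second probe gave 2.82. Krt18 fell, with 39870 and 24328 after gamma rays against 104886 and 90661 without (-1.65 ± 0.36), as did Krt19, with 9179 and 8545 after gamma rays against 27196 and 25954 without (-1.58 ± 0.03), and Krt23 (-1.71 ± 0.06). Krt8, the partner of Krt18, stood at -0.86 ± 0.64. The epithelial transcription factor Ehf rose by 1.75 ± 0.02. With median centring the calls of Ly6d, Sprr1b, Slpi, Krt18 and Krt19 ended.

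Further genes that rose encode enzymes, signals and matrix proteins. Aldh1a1, a retinaldehyde dehydrogenase, stood at 3.45 ± 0.33, and Bbox1, the last enzyme of carnitine synthesis, at 3.23 ± 0.15. Sostdc1, a secreted antagonist of BMP and Wnt signals, had 56233 and 63179 in the gamma-irradiated primary, against 6035 and 8169 in the unirradiated primary (3.09 ± 0.19). Of 31 measured Wnt genes 3 rose, where 2.23% of all measured genes did. Among the 3 were the antagonist Sfrp1 (1.97 ± 0.10) and the ligand Wnt5b (1.37 ± 0.11). Col7a1, the collagen of anchoring fibrils under the epidermis, rose by 2.06 ± 0.14. Trpv6, an epithelial calcium channel, was at 2.75 ± 0.09. Prelp, a matrix proteoglycan, and Glul, glutamine synthetase, rose by 2.97 ± 0.32 and 2.54 ± 0.34 by their brightest probes, while other probes gave 0.51 (Prelp) and 0.35 (Glul).

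Among the genes that fell, 8 were targets of ATF4, the transcription factor that cells use when amino acids run short or proteins misfold. Of 15 measured targets 8 fell, none rose, and the median was -1.26. Trib3, a pseudokinase that restrains this response, had 4596 and 5069 after gamma rays, against 16242 and 13062 in the unirradiated primary (-1.59 ± 0.32). Slc7a11, the cystine carrier, had 294 and 286 after gamma rays, against 915 and 976 without (-1.71 ± 0.09), and Asns, asparagine synthetase, had 20215 and 22718 after gamma rays, against 48741 and 54244 without (-1.26 ± 0.01). In these 3 the unirradiated primary was the higher on both arrays, as in every gene that fell. Ddit3, which encodes CHOP, stood at -1.44 ± 0.03, the serine pathway enzyme Psph at -1.29 ± 0.32 and the mitochondrial folate enzyme Mthfd2 at -1.30 ± 0.23. Cth, an enzyme of cysteine synthesis outside the list, fell by 1.74 ± 0.14. Atf4 itself stood at -0.79 ± 0.41. The 13 measured folding chaperones, the other arm of the unfolded protein response, had none called and a median of 0.17, with Hspa5 at -0.30 ± 0.09.

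Promoters of Slc7a11 and Asns are given because both carry the C/EBP-ATF response element (CARE, TGATGNAA, searched on both strands), with the matches in capitals. This motif was added after the ratios had been seen.
Slc7a11, chr3:50443564-50443863, minus strand: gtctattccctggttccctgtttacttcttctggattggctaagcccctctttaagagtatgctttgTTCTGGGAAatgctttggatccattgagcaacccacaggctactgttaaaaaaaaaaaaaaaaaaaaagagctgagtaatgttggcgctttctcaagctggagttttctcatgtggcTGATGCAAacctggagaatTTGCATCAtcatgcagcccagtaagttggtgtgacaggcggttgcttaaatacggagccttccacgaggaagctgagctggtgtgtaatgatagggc
Asns, chr6:7693160-7693459, minus strand: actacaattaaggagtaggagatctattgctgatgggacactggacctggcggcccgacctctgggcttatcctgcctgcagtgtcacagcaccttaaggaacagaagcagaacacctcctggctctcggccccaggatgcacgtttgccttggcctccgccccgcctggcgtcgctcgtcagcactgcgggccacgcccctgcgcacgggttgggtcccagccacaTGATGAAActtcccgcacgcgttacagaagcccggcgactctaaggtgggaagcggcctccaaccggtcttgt
The Slc7a11 promoter holds CAREs at -66 and -47 and a GAS, also in capitals, at -183. The Asns promoter holds a CARE at -23. Trib3 had 1 at +14, while Ddit3, which also fell, had none in this window. Wfdc18, which rose, had 1 at -145. A CARE was found in 5 of the 15 ATF4 target promoters (33.3%), in 7.75% of those of genes that fell and in 4.41% of those of genes that rose. Over all measured genes the share was 2.76%, and over all 27025 genes with a promoter it was 4.51%.

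Amino acid carriers fell in 4 of 21 measured cases and rose in 1. Slc7a3, a carrier of arginine and lysine, had 238 and 168 in the gamma-irradiated primary, against 2412 and 2257 in the unirradiated primary (-3.54 ± 0.29), an 11.7-fold difference. The leucine carrier Slc7a5 fell (-1.12 ± 0.04), as did the glycine carrier Slc6a9 (-1.08 ± 0.04), while the glutamate carrier Slc1a1 rose by 2.11 ± 0.19. Car6, a secreted carbonic anhydrase, had 432 and 373 after gamma rays, against 3779 and 3936 without (-3.26 ± 0.19).

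Ligands of the EGF receptor family also fell. Of 22 measured EGF and FGF family genes 4 fell, all of them such ligands: neuregulin Nrg1 (-1.86 ± 0.01), epigen, Epgn (-1.78 ± 0.04), amphiregulin, Areg (-1.61 ± 0.29), and Hbegf (-1.10 ± 0.11). Areg had 2347 and 2503 after gamma rays, against 8274 and 6626 in the unirradiated primary. The receptors Egfr and Erbb2 stood at 0.02 and 0.37, and Fgfr2, a receptor of FGFs, rose by 1.11 ± 0.14. Immediate early genes, which growth signals switch on, fell in 3 of 25 cases (Ier3 at -1.38 ± 0.01, Maff at -1.37 ± 0.09 and Fosl1 at -1.34 ± 0.07), with a median of -0.45. Ptgs2, which encodes cyclooxygenase 2, fell by 1.82 ± 0.02.

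Genes of epithelial-mesenchymal transition and invasion fell in 5 of 26 cases and rose in none, with a median of -0.32. Hmga2, an architectural chromatin protein, had 655 and 654 in the gamma-irradiated primary, against 3284 and 4092 in the unirradiated primary (-2.49 ± 0.23), and its other probes ran from -2.16 to -0.40. Spp1, osteopontin, stood at -1.82 ± 0.21, Twist2 at -1.22 ± 0.25 and the metalloproteinase inhibitor Timp1 at -1.20 ± 0.07. Vim, Zeb1 and Snai2, defining mesenchymal genes, were at -0.09, -0.54 and -0.11. Hypoxia genes fell in 3 of 29 cases and rose in 1, with a median of -0.38: Ero1a, an oxidase of protein folding, at -2.05 ± 0.08, the hormone Stc2 at -1.82 ± 0.10 and adrenomedullin, Adm, at -1.29 ± 0.20, against Ddit4, an inhibitor of mTOR, at 1.41 ± 0.22. Slc2a1, the glucose carrier, stood at -1.32 ± 0.48 and passed in 1 orientation. No glycolytic gene of 17 was called, where 3.49% of all measured genes were. Rhox5, a homeobox gene, fell by 2.58 ± 0.13, with 715 and 777 after gamma rays against 4568 and 4358 without.

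Calls in genes of the DNA damage response are given beside those of all measured genes, of which 2.23% rose and 1.26% fell. Of 34 measured p53 targets 1 rose and 2 fell, with a median of -0.06. Cdkn1a, which encodes the cell cycle inhibitor p21, had 7270 and 7076 in the gamma-irradiated primary, against 8553 and 8634 in the unirradiated primary (-0.26 ± 0.04), and Mdm2, which marks p53 for destruction, stood at -0.47 ± 0.08. Gadd45a, with 2201 and 2165 after gamma rays against 7011 and 6799 without, fell (-1.66 ± 0.01), as did Gdf15 (-1.55 ± 0.26), and the p53 relative Trp73 rose by 1.07 ± 0.04. None of 46 DNA repair genes, 32 of DNA replication and 33 of mitosis was called, where 3.49% of all measured genes were. The medians of these lists were 0.17, 0.21 and 0.27, and Mki67, a marker of cycling cells, stood at 0.33 ± 0.14. Of 23 measured senescence-associated genes 6 fell, among them Igfbp5 (-1.51 ± 0.07), while with median centring 2 fell. Lmnb1, whose loss marks senescence, was the 1 that rose, by 2.06 ± 0.76, with 13606 and 14217 after gamma rays against 4752 and 2353 without.

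The calls of Ddit3, Asns, Psph, Mthfd2, Slc7a5, Slc6a9, Hbegf, Fgfr2, Ier3, Maff, Fosl1, Spp1, Twist2, Timp1, Adm, Ddit4, Gdf15 and Trp73 ended with median centring, which left 3 of the 8 ATF4 targets called.

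Skeletal muscle, the tissue around a tumour in the leg, had the most genes of any list that fell: 36 of 62 measured members, with none rising and a median of -1.39. Of the 54 with both RNAs well above background 34 fell. Intensities of all 67 muscle genes on the arrays summed to 36295 and 35168 in the gamma-irradiated primary, against 109892 and 109832 in the unirradiated primary. Fast fibre genes fell in 12 of 17 cases (median -2.06), slow fibre genes in 1 of 8 (median -0.55), and embryonic or regenerating muscle genes in 7 of 14 (median -1.26). Actn3, the actin-binding protein of fast fibres, had 306 and 309 after gamma rays, against 2292 and 2306 in the unirradiated primary (-2.90 ± 0.00). Des, desmin, had 490 and 464 after gamma rays, against 3887 and 3371 without (-2.92 ± 0.09). Sln, which regulates the muscle calcium pump, had 206 and 204 after gamma rays, against 2365 and 2662 without (-3.62 ± 0.13), although its second probe gave -0.08. The RNAs lay apart on both arrays in all 3, as in every called gene. Myf6, a muscle transcription factor, was not well above background after gamma rays and was at least 3.85-fold lower. Members that were not called included Myh7 (0.00 as rounded) and Casq2 (0.99), both of slow fibres. Less muscle in the dissected material and less RNA of these genes per cell cannot be told apart here.

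Endothelial genes had a median of -0.38, and all 21 measured members had ratios below 0, but 1 was called, the tight junction gene Cldn5 (-1.47 ± 0.03), whose call ended with median centring. Intensities of all 23 endothelial genes on the arrays summed to 20816 and 21030 in the gamma-irradiated primary, against 33693 and 32728 in the unirradiated primary. None of 20 fibroblast genes was called (median 0.15), where 3.49% of all measured genes were. Vegfa, the main growth factor of vessels, stood at -0.92 ± 0.24.

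The same pair of RNAs was also compared by a second route, as the sum of the ratios of carbon-irradiated over unirradiated and of gamma-irradiated over carbon-irradiated, on 4 other arrays of another slide. These hold the same RNAs, so the route checks the hybridisation and not the animals. Of the 542 called genes that could be measured this way, 542 had the same sign and 442 again passed in both orientations, 287 of 346 that rose and 155 of 196 that fell. By this route alone 1.98% of 14914 genes were higher and 1.09% lower, together 3.08%. The direct ratio minus that through the carbon RNA had an SD of 0.07 over 14831 genes. The gap exceeded 1 in 3 called genes: Tgtp1 (4.79 direct, 3.27 through carbon), Cxcl9 (4.36 direct, 3.26 through carbon) and Gbp4 (2.03 direct, 0.93 through carbon). Of the 23 genes that rose by at least 3, 19 had the higher ratio directly, with a median gap of 0.19. These 23 were picked by their direct ratio, a choice that by itself favours the direct value. Iigp1 stood at 4.80 directly and 4.38 through carbon, Sprr2d at 3.51 directly and 3.76 through carbon, and Slc7a3 at -3.54 directly and -3.82 through carbon.

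**Figure D4:**
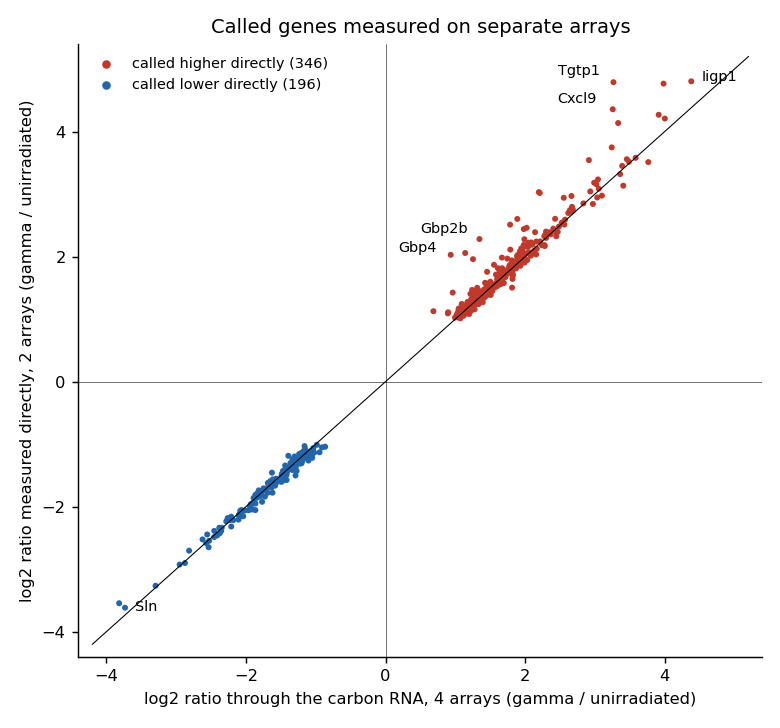
Log2 ratio of gamma-irradiated over unirradiated primary for the 542 called genes measured by both routes, directly on 2 arrays (y axis) and through the carbon RNA on 4 others (x axis), with the line of equality. All points share their sign, and Tgtp1, Cxcl9 and Gbp4 lie farthest above the line.

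Beside the primary given 5 Gy of carbon ions, which differs in dose as well as in kind of radiation, the genes that rose after gamma rays had a median ratio below 0. On the 2 arrays that held both irradiated RNAs, 24 of 15038 measured genes were higher after gamma rays than after carbon ions (0.160%) and 133 were lower (0.884%), together 1.04%. Of the 348 genes that rose, 10 were higher than after carbon ions and 69 lower, with a median of -0.52. Of the 196 that fell, none was higher and 33 were lower, with a median of -0.35. Interferon-inducible GTPases were lower in 16 of 18 cases, with Iigp1 at -3.06 ± 0.14 and Igtp at -2.95 ± 0.04, and MHC class I genes in 0 of 30, with H2-K1 at -0.22 ± 0.38. Skeletal muscle genes were lower in 20 of 58 cases, with Actn3 at -2.02 ± 0.02. ATF4 targets had none called, with Trib3 at -0.73 ± 0.26 and Slc7a11 at 0.04 ± 0.01.

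Among 61 keratinocyte differentiation genes measured on these arrays, 7 were higher after gamma rays than after carbon ions and 2 were lower. Cnfn stood at 2.42 ± 0.03 over the carbon-irradiated primary, Crct1 at 1.58 ± 0.06, Sprr2f at 1.49 ± 0.10, Sprr2d at 1.39 ± 0.08 and the kallikrein Klk12 at 1.13 ± 0.04. Serpinb11, a serpin of epithelium, was at 1.39 ± 0.03 and Tspan1, a tetraspanin, at 1.13 ± 0.04. Cnfn was at -0.26 in the carbon-irradiated over the unirradiated primary, while Alox12e stood at -1.93 ± 0.04 in gamma over carbon.

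**Figure D5:**
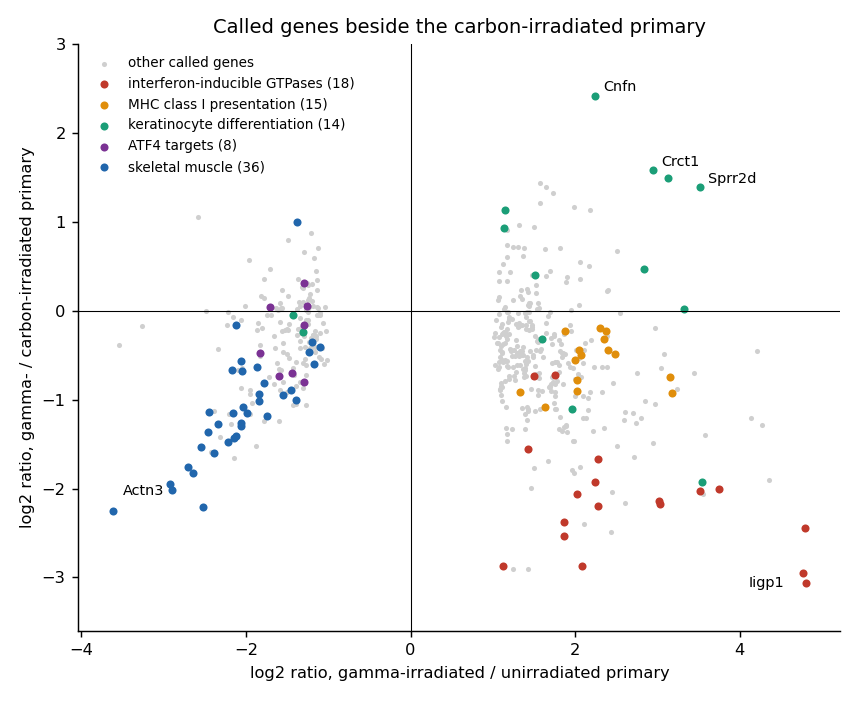
Log2 ratio of gamma-irradiated over unirradiated primary (x axis) and of gamma-irradiated over carbon-irradiated primary (y axis) for called genes, coloured by group. The gamma RNA is in both ratios, so the axes are not independent. The 18 GTPases lie below 0 on the y axis, while Cnfn, Crct1 and Sprr2d lie above 1.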

How the data were processed

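Each array held 2 RNAs in Cy5 and Cy3, and the dyes were exchanged between the 2 arrays of a comparison. Per the file headers, spots were quantified with Agilent Feature Extraction 9.1.3.1, which gave mean signal and local background intensities for every spot. Per the file headers, it also gave a log10 ratio of Cy5 over Cy3 after its own background and dye correction, and a p-value of that ratio from its error model. The authors' series table holds log10 ratios that were set against those of the scanner files and used as an alternative.

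From the intensities, background was corrected by normexp with an offset of 50 and ratios were normalised by loess within each array (limma 3.58.1 in R 4.3.3), with control spots at weight 0 and flagged spots left out. Spots of a probe were averaged, the brightest probe stood for a gene, and ratios were turned so that the gamma RNA is on top. The printed intensities were also scaled between the 12 arrays (Aquantile) and include the offset. A bound ("at least") sets the brighter RNA against the lowest signal well above background on each array, or against the dim probe's own where that is higher. The 41174 probes were named by accession (22951), symbol (6659) or older symbol (3109) through RefSeq's table, and 8455 kept the file's name. Gene names without a symbol were counted but not named. No column of another series was found (0). The ratio calculation was tested on simulated data. Promoters were searched in Python 3.11.15.

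The dye pair is 1 replicate and each group has 1 RNA, so no test across genes was possible, and the number of arrays limits the precision. Named genes were drawn from the 30 highest and 30 lowest called genes with a symbol, up to 6 called members per list and any called against its list, and defining cell type markers. They were also drawn from the 10 largest gaps between the direct and the second route, and from called genes with another probe over 1 log2 unit away. Not every gene that these rules admit is named. Other named genes were chosen after their values were seen. The genes, lists and rules were chosen with earlier results of these data known.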

Additional observations from a re-analysis of the deposited data

Results flagged for a closer look

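Between gamma-irradiated and unirradiated animals, 28 of the 497 named called genes measured at both sites went opposite ways in leg tumour and lung metastases. Genes that went the same way were not counted. The metastases were sampled 2 weeks after the primary reached its size, each as 1 RNA against the same unirradiated primary. Their value is the difference between the ratios of gamma-irradiated and unirradiated animals. Each gene passed 1 log2 unit in both orientations at both sites with opposite signs. The difference was not tested, and among 15396 genes measured at both sites 201 were lower and 233 higher by that rule in the metastases. The unirradiated primary RNA was on all of these arrays, and as the common reference it cancels in the difference between the metastases. With 1 RNA per group, whether gamma rays made these differences was not tested. Values are log2 ratios of gamma-irradiated over unirradiated, and bounds in fold where the unirradiated primary was not well above background on either array.

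In 19 genes the primary was higher and the metastases lower after gamma rays. Among interferon gamma and chemokines it can induce, Cxcl9 was at 4.36 in the primary and -1.97 in the metastases, Cxcl10 at 3.56 in the primary and -2.29 in the metastases, Cxcl11 at least 2.75-fold higher in the primary and at -2.81 in the metastases, and Ifng at least 1.92-fold higher in the primary and at -2.20 in the metastases. Among immunity-related GTPases, Iigp1 was at 4.80 in the primary and -1.46 in the metastases, Igtp at 4.77 in the primary and -1.61 in the metastases, and Ifi47 at 3.75 in the primary and -1.35 in the metastases. Among guanylate-binding proteins, Gbp2 was at 3.02 in the primary and -1.11 in the metastases, Gbp3 at 3.52 in the primary and -1.42 in the metastases, Gbp5 at least 3.60-fold higher in the primary and at -1.39 in the metastases, Gbp6 at least 3.91-fold higher in the primary and at -1.92 in the metastases, Gbp7 at 2.24 in the primary and -1.26 in the metastases, and Gbp8 at least 2.05-fold higher in the primary and at -1.51 in the metastases. Among the remaining interferon and immune genes, Batf2 was at 2.11 in the primary and -1.79 in the metastases, Apol6 at 1.24 in the primary and -1.46 in the metastases, Ifit2 at 1.54 in the primary and -1.39 in the metastases, Bst2 at 1.85 in the primary and -1.06 in the metastases, Il18bp at 1.17 in the primary and -1.20 in the metastases, and Clec7a at 1.03 in the primary and -1.09 in the metastases.

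In 9 genes the primary was lower and the metastases higher. Among muscle genes, Sln was at -3.62 in the primary and 3.40 in the metastases, Synpo2l at -2.39 in the primary and 1.09 in the metastases, Myom2 at -2.21 in the primary and 1.22 in the metastases, Myl4 at -1.78 in the primary and 1.54 in the metastases, Cox8b at -2.05 in the primary and 1.37 in the metastases, and Car3 at -1.62 in the primary and 2.13 in the metastases. Among genes that hypoxia can induce, Ero1a was at -2.05 in the primary and 1.37 in the metastases, Edn2 at -1.66 in the primary and 2.25 in the metastases, and Adm at -1.29 in the primary and 3.17 in the metastases.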

How the results depend on the processing

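With each array centred on its median in place of loess, 233 genes rose and 104 fell, 325 of the 544 calls remained, MHC class I genes rose in 9 cases in place of 15, and ATF4 targets fell in 3 in place of 8. Feature Extraction's processed ratios gave 604 higher and 419 lower, the ratios of the authors' deposited table gave 602 higher and 418 lower, and an offset of 0 gave 491 and 322. These 3 settings kept 541, 541 and 544 of the calls, and the cause of the changed counts was not tested. The authors' log10 ratios differed from Feature Extraction's by at most 0.005 on any array. The first 2 of these settings therefore hold nearly the same values and are not separate checks. Scaling between the arrays, leaving out dim probes, no filter, the mean of all probes, each orientation alone and the route through the carbon RNA kept the total counts within 1.5 times the reported ones. The share of calls that were higher was 64.0% and ran from 59.0% to 69.1% over the settings. No named gene's call changed sign under any of them: 4146 values moved by no more than the spread between orientations and 1326 by more. Part of the 4146 was fixed in advance. A value from 1 orientation alone cannot move by more than that spread, and settings that change only the filter keep the same ratio. List medians moved too, with 431 values within the spread between orientations and 229 beyond it. The median of interferon-inducible GTPases was 2.26, against 2.92 with an offset of 0 and 3.25 by Feature Extraction's ratios, that of antiviral effectors 0.71, against 1.03 and 1.30, and that of skeletal muscle genes -1.39, against -1.98 and -2.24. No paired analysis was possible because each group is 1 RNA and carries only replicate number 1. Dim genes limit the folds: of those that rose, 23 were not well above background in the unirradiated RNA on either array.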

Other observations

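Some smaller groups also held called genes, given beside the 2.23% of all measured genes that rose and the 1.26% that fell. Of 28 measured NRF2 targets, which handle oxidants and foreign compounds, 3 rose and none fell: the aldo-keto reductase Akr1c18 (1.89 ± 0.09) and the glutathione transferases Gsta3 (1.39 ± 0.08) and Gstm1 (1.13 ± 0.09). Serpins rose in 4 of 17 cases and fell in 1, with Serpina3g at 1.98 ± 0.24 and Serpinb1a, an inhibitor of neutrophil proteases, at -1.30 ± 0.01. In the TGF-beta and BMP pathways 2 of 35 genes rose, the activin subunit Inhbb (1.39 ± 0.05) and the BMP target Id4 (1.11 ± 0.01). Of 10 germline, placental and imprinted genes 1 rose, Plac8 (1.91 ± 0.05), and 3 fell, Rhox5, the noncoding RNA H19 (-1.34) and the cell cycle inhibitor Cdkn1c (-1.22 ± 0.05), while Igf2, the neighbour of H19, stood at -0.95 ± 0.15. The calls of Gsta3, Gstm1, Serpinb1a, Inhbb, Id4, H19 and Cdkn1c ended with median centring.

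The choice of probe mattered for part of the calls. Of the 238 called genes with several probes, 115 had another probe over 1 log2 unit away and 28 had one of the opposite sign. Ifi27, an interferon-induced gene, stood at 1.32 ± 0.08 by its brightest probe, a call that ended with median centring, and at 4.05 by another. H2-D1 stood at 2.36 ± 0.11 and 0.04, the myosin Myh8 at -2.16 by its brightest probe and at -0.04 and 0.09 by others, and Car3, a carbonic anhydrase of muscle, at -1.62 ± 0.04 and 0.06. Which transcripts these probes read was not tested.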
